A study of Mus musculus with 2 samples.

Results

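The genes described here encode proteins that carry out or steer the removal of introns from messenger RNA: 12 proteins of the small nuclear ribonucleoprotein particles (snRNPs), 9 subunits of splicing factor 3 (SF3), 11 serine/arginine-rich (SR) proteins and 19 heterogeneous nuclear ribonucleoproteins (hnRNPs). They were chosen by name, as every autosomal protein-coding gene whose symbol begins with Snrp, Sf3a, Sf3b, Srsf and a digit, or Hnrnp. This gave 51 genes on 17 autosomes, out of 20337 autosomal protein-coding genes and 43346 Ensembl gene rows. RNA was measured in the liver of B6NCrl mouse embryos at embryonic day 11.5, in 2 libraries that the labels number as biological replicates 1 and 2. Male and female embryos were pooled for each, 109 of them named for replicate 1, and 1 cell-equivalent of total RNA with added spike-in RNAs entered a SmartSeq protocol. The labels name no treatment, mutant allele or second condition, so both libraries form 1 group and no test between conditions exists.

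A spliceosome is built anew on each intron. The U1 snRNP binds the start of the intron, the U2 snRNP binds the branch site near its end with the help of SF3, and most of these particles carry a ring of Sm proteins around their small nuclear RNA. SR proteins mostly bind exons and promote their inclusion, whereas many hnRNPs repress nearby splice sites, and several genes of both families control their own level through poison exons or retained introns, which lead to nonsense-mediated decay (NMD) or keep the RNA in the nucleus. At this stage the liver holds hepatoblasts, the precursors of hepatocytes, and large numbers of maturing red blood cells.

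The total expected count, an estimated number of reads, was 33289699 in replicate 1 and 32607453 in replicate 2. Levels are given as deposited TPM, a relative abundance corrected for length, so that genes can be compared with each other. The labelled tissue was checked against fixed markers: 9 of 9 erythroid and 8 of 9 hepatoblast markers reached a TPM of 1 in both libraries, Hnf4a being listed at 34.8 and at 0. Markers of other cells differed between the libraries. The summed TPM of 8 heart muscle markers was 50.2 in replicate 1 and 269 in replicate 2, of which 5 and 2 were at 0, with Myh7 and Nppa at 0 in both. The sum of 6 mesenchymal markers was 214 and 479, with none at exactly 0. For 6 macrophage markers it was 426 and 163, with 1 and 3 at 0, and for 6 neuronal markers 8.41 and 45.5, with 3 and 1 at 0. Whether these differences bear on the ratios between libraries given below was not tested.

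Nearly all of the genes were expressed. Of the 51, 49 had 1 TPM or more in both libraries, beside 27.9% of all autosomal protein-coding genes and 63.8% of those averaging 1 TPM or more. Summed over the 51 genes, they took 1.19% ± 0.0923 of all TPM (SD, n = 2). The snRNP proteins took 0.449% ± 0.0137, the hnRNPs 0.418% ± 0.0315, the SR proteins 0.221% ± 0.0326 and SF3 0.1005% ± 0.0145. The order of the first 2 families depends on the scale. As a share of expected counts, which are not corrected for length, the hnRNPs held 0.725% and the snRNP proteins 0.283%. In bulk tissue, fewer cells that express a gene and less of its RNA per cell cannot be told apart.

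**Figure D1:**
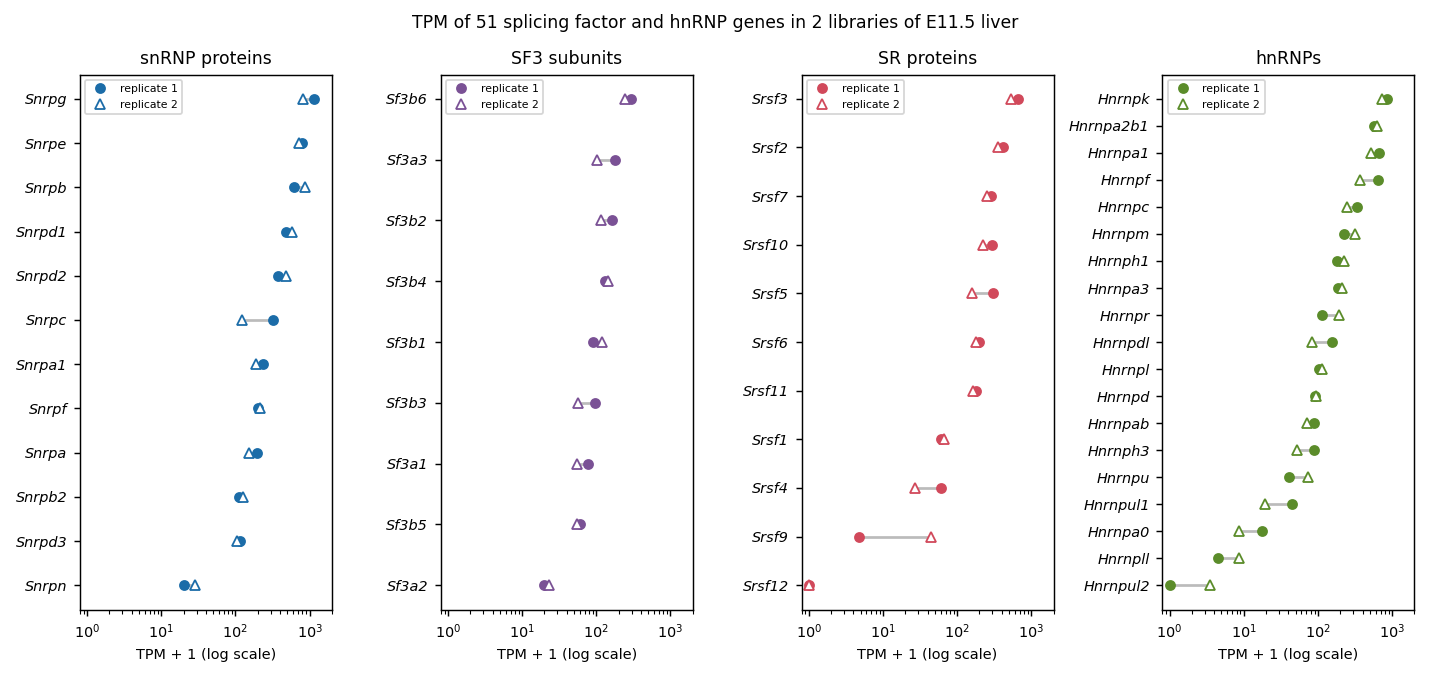
TPM + 1 of each of the 51 genes on a log axis, by family, with filled circles for replicate 1, open triangles for replicate 2 and a grey line joining them. Most pairs lie close together, and the widest gap among genes averaging 10 TPM or more is that of Srsf9, at 3.73 and 43.0 TPM.

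The Sm ring consists of SmB, SmD1, SmD2, SmD3, SmE, SmF and SmG, 1 copy of each around a small nuclear RNA. Their messages were not equally abundant. Snrpg, which encodes SmG, stood at 1140.0 TPM in replicate 1 and 819 in replicate 2, and Snrpe, for SmE, at 798 and 710.2. Snrpb, for SmB, was measured at 613 and 878 TPM and was the highest Sm gene in replicate 2. Snrpd1 and Snrpd2, which encode SmD1 and SmD2, were intermediate, at 478 and 575 TPM and at 372 and 476. The lowest were Snrpf, for SmF, at 199.8 and 216 TPM, and Snrpd3, for SmD3, at 116 and 104. The highest of the 7 exceeded the lowest 9.84-fold in replicate 1 and 8.47-fold in replicate 2. Snrpd3 was the lowest of the 7 in both libraries. Snrpn encodes SmN, a relative of SmB best known from brain and from an imprinted locus, and its level was 19.0 and 27.4 TPM. Snrpb exceeded it 32.2-fold in replicate 1 and 32.1-fold in replicate 2.

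Several of these levels depend on how reads were divided between a gene and processed pseudogenes, which are intronless copies inserted elsewhere in the genome. Among 5349 processed pseudogenes with a sequence, 43 matched a protein-coding transcript of one of the 51 genes over at least 90% of their length at 95% identity or more. They copied 16 of the genes, and 14 of them reached 1 TPM in a library. The deposited tables assigned the copies 1744 TPM in replicate 1 and 1288 in replicate 2, of which 1308 and 977 went to copies of snRNP genes. How closely a copy can resemble its gene is shown by the Snrpg coding sequence (transcript Snrpg-201, mm10 chr6:86371583-86378783, plus strand), which is identical over all 231 bases to the pseudogene Gm8186 (chr17:26098991-26099221, minus strand). The sequence of Gm8186 is given on the next line in its own direction.
Gm8186: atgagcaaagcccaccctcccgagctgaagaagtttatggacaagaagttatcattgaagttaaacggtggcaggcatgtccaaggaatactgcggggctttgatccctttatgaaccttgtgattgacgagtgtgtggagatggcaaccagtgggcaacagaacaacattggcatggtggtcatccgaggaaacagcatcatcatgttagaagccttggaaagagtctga

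Gm13092 (chr4:150315177-150315436, minus strand), the copy of Snrpf, differs from the Snrpf coding sequence (Snrpf-201, chr10:93583464-93589541, minus strand) at 4 of 260 aligned bases. They are G3C, C27T, A35G and G39A, with positions counted from 1 at the A of the start codon, the gene's base first and the copy's base last. Bases 2 to 60 of the pair hold all 4 and are shown with the differing bases in capitals.
Snrpf: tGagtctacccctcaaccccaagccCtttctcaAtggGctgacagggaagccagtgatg
Gm13092: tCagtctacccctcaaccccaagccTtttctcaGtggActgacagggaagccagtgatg

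Snrpert (chr2:131322088-131322366, minus strand) differs from the Snrpe coding sequence (Snrpe-204, chr1:133604021-133610217, minus strand) at 3 of 279 bases, G178A, G228A and T271C on the same numbering. Bases 160 to 279 are shown because they hold all 3 differences, again in capitals.
Snrpe: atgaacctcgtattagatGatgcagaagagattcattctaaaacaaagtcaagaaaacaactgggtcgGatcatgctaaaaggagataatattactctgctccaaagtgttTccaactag
Snrpert: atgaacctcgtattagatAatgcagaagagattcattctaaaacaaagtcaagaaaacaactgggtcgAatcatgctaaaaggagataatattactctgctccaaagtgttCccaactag

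The amounts assigned to these copies were large. Gm8186 was given 768 TPM in replicate 1 and 444 in replicate 2, or 40.2% and 35.2% of the sum of Snrpg and its copy. Gm13092 was given 396 and 386 TPM, more than Snrpf itself, or 66.5% and 64.0% of their sum. In expected counts its part was 29.5% and 27.3%, since TPM weights a short row more heavily. Snrpert held 140 and 144 TPM, 14.9% and 16.9% of the sum with Snrpe. With copies added to their genes, the mean ratio of the highest to the lowest Sm gene was 14.3, where the genes alone gave 9.15 ± 0.965 (SD, n = 2). Whether reads on a copy came from the gene or from the pseudogene was not tested.

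Copies outside the snRNP genes were also assigned reads. Gm9761, which differs from the coding sequence of Srsf3 at 2 of 492 bases (G248A and C469T), had 250.0 and 193 TPM, and copies made up 27.6% and 26.7% of the TPM of Srsf3 and its copies. Copies of Hnrnpc held 18.8% and 12.4%, those of Hnrnpk 6.19% and 6.11% and those of Hnrnpa1 6.12% and 5.03%. For the other 9 genes with a copy the part in copies was at most 1.19%.

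**Figure D2:**
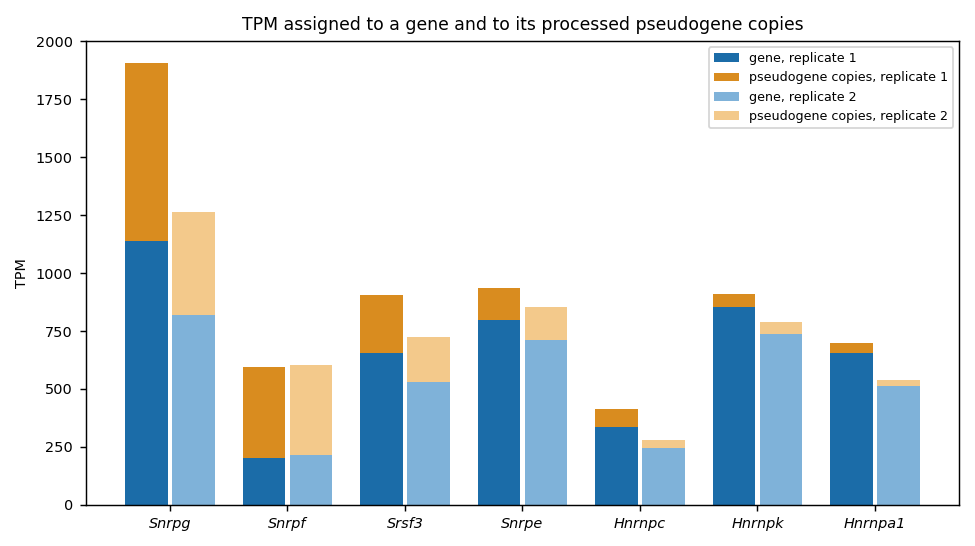
TPM assigned to 7 genes and, stacked above, to their processed pseudogene copies, with replicate 1 as the darker and replicate 2 as the lighter bar. Snrpf is the only one of the 7 with more TPM in its copy (396 and 386) than in the gene (199.8 and 216).

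Each snRNP also carries proteins of its own. For U1, Snrpa encodes a protein that binds a loop of the U1 RNA, and stood at 193 TPM in replicate 1 and 151 in replicate 2. Snrpc encodes a protein that helps the particle to hold the start of the intron. Its level was 315 and 120 TPM, from 7217 and 2751 reads, so the pair of U1 genes was 1.28-fold and 2.62-fold higher in replicate 1. For U2, Snrpa1 stood at 233 and 191 TPM, and Snrpb2, whose product binds that of Snrpa1, at 109 and 126. These U2 genes thus differed by less than the pair of U1 genes did. Snrnp70, a further U1 protein gene that the choice by name left out, was higher in replicate 2, at 22.8 and 47.6 TPM.

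SF3 joins the U2 snRNP to the branch site and has a 3-part SF3a and a larger SF3b. All 9 genes chosen by name were detected in both libraries, and none of the 9 differed 2-fold between them. Phf5a, an SF3b subunit without an Sf3 name, is not among the 9. It was more than 2-fold higher in replicate 1, at 327 and 89.6 TPM. Sf3b6, which encodes a small SF3b subunit, was the highest of the 9, at 293 and 242 TPM. Sf3b1 encodes the large repeat protein that grips the branch helix and is a frequent mutation target in myelodysplastic syndromes, and it was measured at 89.6 and 117 TPM. Sf3b2 and Sf3b4, RNA contacts upstream of the branch site, had 163 and 114 TPM and 131 and 143 TPM. The scaffold subunit Sf3b3 had 96.2 and 55.5, and the small subunit Sf3b5 had 59.0 and 53.2. Within SF3a, Sf3a3 was the highest, at 179 and 101 TPM, followed by Sf3a1 at 77.2 and 54.1. Sf3a2 was the lowest of the 9, at 18.6 and 22.2 TPM, so that subunits of 1 complex spanned a mean range of 13.3-fold ± 3.39 between Sf3b6 and Sf3a2 (SD, n = 2).

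Among SR proteins, Srsf3, the smallest of the classical members and also active in RNA export, was the highest, with 654 TPM in replicate 1 and 532 in replicate 2. Srsf2, a regulator of exon inclusion mutated in myeloid disease, followed at 415 and 350 TPM, then Srsf7, the closest relative of Srsf3, at 285 and 248. Srsf10, known as a repressor when dephosphorylated, had 291 and 226. These 4 were each lower in replicate 2, by at most 1.29-fold. A middle group held Srsf5 at 303 and 156 TPM, Srsf6 at 194 and 177 and Srsf11 at 180 and 161. Srsf1, the founding family member, stood lower, at 59.1 and 65.3 TPM.

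The low end of the SR family was less even. Srsf4 was measured at 58.9 TPM in replicate 1 and 25.8 in replicate 2, and Srsf9 (chr5:115327177-115333080) at 3.73 and 43.0, from 86 and 1131 reads. Srsf9 was therefore below Srsf4 in replicate 1 and above it in replicate 2. Srsf12 (chr4:33208991-33233340) had no read in either library. A count of 0 allows up to 3 reads, or a CPM (reads scaled to library size) of 0.0901 in replicate 1 and 0.0920 in replicate 2, and this limit covers counting error only, since PCR copies are not independent molecules.

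Levels of the hnRNPs ran from 855 TPM to 0. Hnrnpk, which binds C-rich RNA and DNA, was the highest at 855 and 739 TPM. Hnrnpa2b1 and Hnrnpa1, abundant relatives that often repress exons, followed at 575 and 619 TPM and at 655 and 513. Their order changed between the libraries, with a ratio of Hnrnpa1 to Hnrnpa2b1 of 1.14 and 0.828. Hnrnpf, which binds G-rich tracts, had 652 and 374. The next levels belonged to Hnrnpc, a binder of U-rich tracts in pre-mRNA, at 334 and 244 TPM, to Hnrnpm at 221 and 319, to Hnrnph1 at 182 and 227 and to Hnrnpa3 at 184 and 212. Hnrnpr, Hnrnpdl, Hnrnpl, Hnrnpd, Hnrnpab, Hnrnph3 and Hnrnpu lay between a mean of 152 TPM for Hnrnpr and 56.0 for Hnrnpu. Among them Hnrnpdl (156 and 81.1 TPM), Hnrnpab (88.9 and 69.5) and Hnrnph3 (87.3 and 51.8) were lower in replicate 2. Hnrnpl (102 and 112) and Hnrnpd (89.4 and 92.5) differed little, at 1.10-fold and 1.03-fold.

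At the foot of the family stood 4 genes. Hnrnpul1 had 43.7 and 18.2 TPM and Hnrnpa0, an intronless relative of Hnrnpa1, had 16.5 and 7.72. Hnrnpll, the relative of Hnrnpl known from T cells, had 3.55 and 7.74. Hnrnpul2 (chr19:8820010-8834143) was listed at 0 in replicate 1 and at 2.47 TPM, from 408 reads, in replicate 2. Against the limit of 3 reads per library, its CPM was at least 139-fold higher in replicate 2. That bound covers counting error of reads only and is no bound on molecules, since PCR copies are not independent. Srsf12 and Hnrnpul2 were the 2 genes outside the count detected in both libraries.

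Differences between the libraries were expressed as log2 ratios of replicate 2 over replicate 1 on the log2(TPM + 1) scale, centred on the median over genes averaging 10 TPM or more, which understates differences of low genes. With 1 library a replicate these have no test, and 2-fold was used as a rule of size. The filter averages the same 2 libraries, so a gene can pass through 1 of them alone. Srsf9 (3.73 and 43.0 TPM) and Hnrnpa0 (16.5 and 7.72) passed in this way, as did Hnf4a (34.8 and 0) among all genes. How far such genes add to the differences counted and lower the correlations was not tested. Of the 48 genes averaging 10 TPM or more, 1 was at least 2-fold higher in replicate 2, beside 25.1% of 6144 autosomal protein-coding genes, and 4 were at least 2-fold higher in replicate 1, beside 26.2%. The median size of the log2 ratio was 0.37 for the 48 and 1.04 for the 6144. The 48 were also higher, with a median level of 171 TPM beside 36.1 for the 6144. Among genes averaging 100 TPM or more the median size was 0.32 for 34 of the genes and 0.47 for all 1333, 0 of the 34 were higher in replicate 2 beside 7.65%, and 1 was higher in replicate 1 beside 12.1%. Across the 48 genes, which share 2 libraries and are not independent replicates, Pearson's r between the libraries was 0.90 and Spearman's rho 0.94, where all 6144 gave 0.39 and 0.52. Among genes averaging 100 TPM or more the values were 0.886 and 0.869 for the 34 and 0.778 and 0.658 for all 1333.

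**Figure D3:**
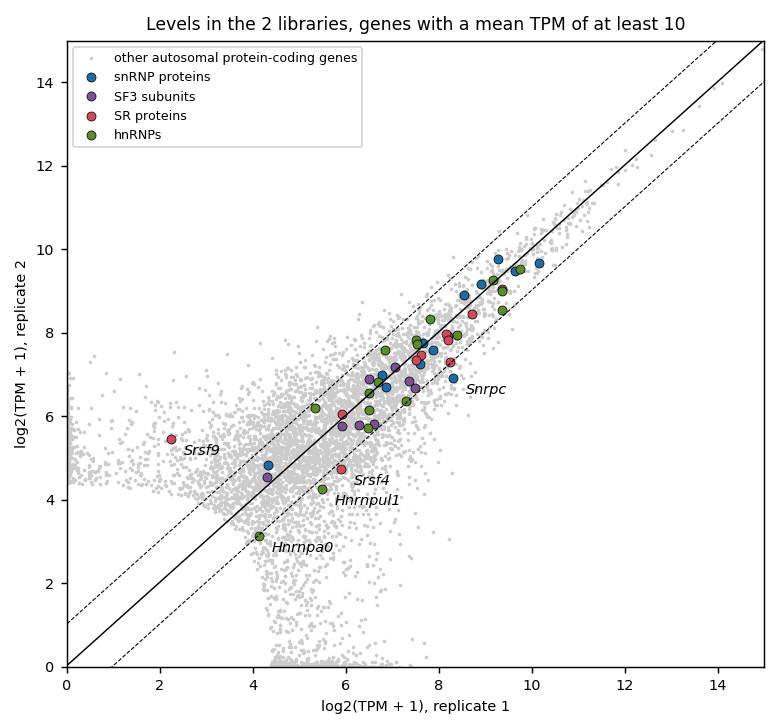
log2(TPM + 1) in replicate 1 (x) and replicate 2 (y) for genes averaging 10 TPM or more, grey for other autosomal protein-coding genes and coloured by family for the 48, with the median ratio as a solid line and 2-fold either side as dashed lines. Srsf9 lies above the band, and Snrpc, Srsf4, Hnrnpul1 and Hnrnpa0 lie at or below its lower edge.

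Srsf9 had the largest ratio, 3.19, and was the gene higher in replicate 2. Below it in that direction came Hnrnpu, a nuclear scaffold protein, at 0.84 (39.4 and 72.7 TPM), Hnrnpr at 0.71 (114 and 189.9 TPM), Hnrnpm at 0.50 and Snrpb at 0.49, all within 2-fold. The 4 genes higher in replicate 1 were Snrpc at -1.41, Hnrnpul1 at -1.25, Srsf4 at -1.19 and Hnrnpa0 at -1.03, with Srsf5 next at -0.98. In CPM from expected counts, Hnrnpul1 and Srsf4 came to -0.87 and -0.62, within 2-fold. Hnrnpu, Hnrnpr and Srsf5 came to 0.31, 0.19 and -0.62 on that scale. For Srsf4, Srsf5 and Hnrnpr the change of scale goes with a change of leading transcript described below. Of the 48 ratios, 29 were negative and 19 positive. Centring changes this balance: the spike-in RNAs had a median log2 ratio of 0.42 and the genes one of 0.03, and with spike-in centring 10 of the 48 genes were at least 2-fold higher in replicate 1.

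Several genes were divided between coding and other transcripts. For each of 38 of the genes that averaged 10 TPM or more and have several annotated transcripts, the transcript with the highest TPM was called the leader. It was the same in both libraries for 29, or 76.3%, beside 62.3% of 4194 autosomal protein-coding genes. Among genes averaging 100 TPM or more it was the same for 21 of 27, beside 86.2%. The leader was not annotated as protein coding in both libraries for 4 of the 38 genes, a share similar to the 8.87% of the 4194. These were Srsf2, Srsf3, Srsf6 and Hnrnpl. All 4 were among the 27 averaging 100 TPM or more, where the share of all genes was 8.06%. The same 4 had at least 50% of their TPM outside protein-coding transcripts in both libraries, beside 10.1% and 8.94%. When leaders were taken by expected count, which is not divided by length, only Hnrnpl was left. The non-coding models of Srsf2, Srsf3 and Srsf6 are 620, 910 and 1666 bases long in the tables, and the coding ones 1899, 2566 and 3527.

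By family, transcripts outside the protein-coding class took 39.1% of the SR TPM in replicate 1 and 44.3% in replicate 2. The hnRNPs followed at 13.5% and 15.8%, SF3 at 4.78% and 11.8% and the snRNP proteins at 5.24% and 3.35%, where all autosomal protein-coding genes gave 13.1% and 13.5%. In expected counts the SR values were 21.6% and 27.3%, against 8.12% and 8.68% for all. Annotation differs between the families as well. Of the 69 SR transcripts quantified, 60.9% were of these other classes, beside 38.0% over all autosomal protein-coding genes.

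**Figure D4:**
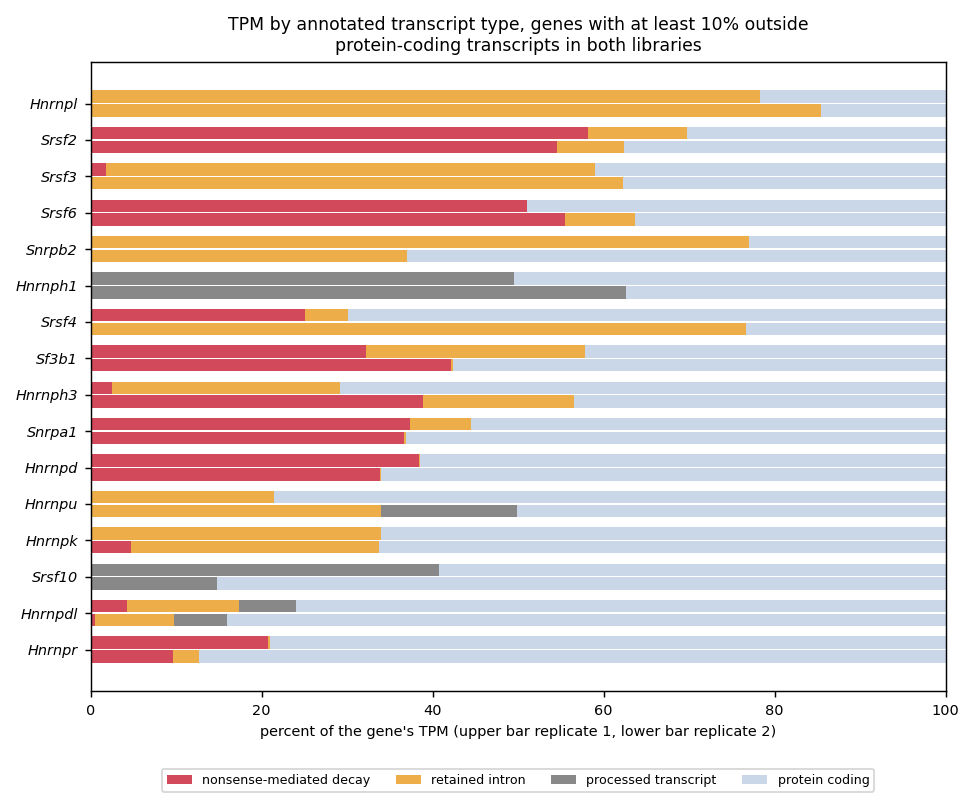
Percent of a gene's TPM in transcripts annotated as NMD, retained intron, processed transcript and protein coding, for the 16 genes with at least 10% outside protein coding in both libraries, upper bar replicate 1 and lower bar replicate 2. Srsf2, Srsf3, Srsf6 and Hnrnpl exceed 50% in both, while bars such as those of Srsf4 and Snrpb2 differ between the libraries.

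Srsf6-201, an NMD transcript, took 51% of the TPM of Srsf6 in replicate 1 and 55.5% in replicate 2, at 99.2 and 98.04 TPM. The coding transcript Srsf6-203 had 95.2 and 64.3 TPM. In expected counts the order was the other way, with 4594 and 4513 reads on Srsf6-201 and 9648 and 6477 on Srsf6-203. Srsf6-201 contains an exon of 268 bases that the coding transcript lacks (mm10 chr2:162932815-162933082, plus strand). Srsf6-201 also ends 2095 bases upstream of the end of Srsf6-203. The extra exon from its first base to the annotated stop codon, in capitals, is printed because the coding transcript lacks this stop.
Srsf6-201 extra exon: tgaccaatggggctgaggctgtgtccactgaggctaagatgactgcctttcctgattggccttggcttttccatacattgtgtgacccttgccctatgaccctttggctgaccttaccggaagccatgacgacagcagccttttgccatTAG

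Srsf2-204, also annotated as NMD, took 58.2% and 54.5% of the TPM of Srsf2, at 242 and 191 TPM, and the coding Srsf2-201 took 30.2% and 37.6%. All 620 bases of Srsf2-204 also lie in Srsf2-201, so the 2 models differ in which bases are joined and in where they start and end. Srsf2-204 starts 1008 bases downstream of Srsf2-201, and their 3′ ends lie 5 bases apart. Reads on Srsf2-204 numbered 3721 and 2920, fewer than the 6671 and 6961 on Srsf2-201. Srsf3-205, annotated as a retained intron, took 55.8% and 62.2% of the TPM of Srsf3, at 365 and 331 TPM, and the coding Srsf3-202 took 41.0% and 37.7%. The tables give Srsf3-205 a length of 910 bases, while the annotation used here gives the same identifier 2110, so its exons are not described.

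Hnrnpl, which binds CA-rich RNA, differed from the SR genes in that its non-coding leader held under either scale. Hnrnpl-210 took 68.2% and 70.1% of its TPM, from 1181 and 1325 reads, while the coding Hnrnpl-202 had 875 and 665 reads. The model of Hnrnpl-210 is 672 bases long and that of Hnrnpl-202 1898. Of the 672 bases, 551 also lie in Hnrnpl-202, and reads on the intron alone were not counted. The transcript keeps an intron of 118 bases (chr7:28821274-28821391, plus strand), printed here with the first stop codon in the frame of Hnrnpl-202 in capitals.
Hnrnpl-210 retained intron: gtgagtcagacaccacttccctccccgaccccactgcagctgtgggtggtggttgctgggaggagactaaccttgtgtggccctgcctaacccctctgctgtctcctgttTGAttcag

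A pair of U2-linked genes showed NMD transcripts of similar weight in both libraries without being led by them. Sf3b1-208 took 32.2% and 42.2% of the TPM of Sf3b1, but from 427 and 727 reads against 6813 and 12079 on the coding Sf3b1-201, whose model is 6195 bases long and that of Sf3b1-208 600. Sf3b1-208 contains an exon of 56 bases (chr1:55014869-55014924, minus strand). The last 30 bases of the exon before it and its first 20 bases are shown, ending with the annotated stop codon in capitals.
Sf3b1-208 extra exon: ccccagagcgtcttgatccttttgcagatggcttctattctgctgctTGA

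Snrpa1-201 took 37.3% and 36.6% of the TPM of Snrpa1, at 87.0 and 69.9 TPM, and 2201 and 1756 reads against 4378 and 4046 on the coding Snrpa1-206. It lacks an exon of 80 bases (chr7:66070119-66070198, plus strand), not a whole number of codons, and its annotated stop codon lies just after the new join. The tables give Snrpa1-206 a length of 1243 bases and the annotation 1248. Both joins are shown, for Snrpa1-201 with the stop codon in capitals and for Snrpa1-206 with the exon in capitals.
Snrpa1-201: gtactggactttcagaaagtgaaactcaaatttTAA
Snrpa1-206: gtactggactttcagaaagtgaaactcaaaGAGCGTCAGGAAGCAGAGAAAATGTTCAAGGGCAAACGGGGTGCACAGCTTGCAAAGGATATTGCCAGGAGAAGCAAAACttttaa

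The leader by TPM differed between the libraries for 9 genes. With leaders taken by expected count, it was the same in both libraries for 34 of the 38. Srsf4 was led by the coding Srsf4-202 in replicate 1, with 69.9% of its TPM, and by the retained-intron transcript Srsf4-201 in replicate 2, with 76.7%. Srsf5 showed the same order, with the coding Srsf5-201 at 44.5% in replicate 1 and the retained-intron Srsf5-212 at 43.1% in replicate 2, and Hnrnph1 changed from the coding Hnrnph1-201 at 50.5% to the processed transcript Hnrnph1-212 at 53.7%. Snrpb2 went the other way. Its retained-intron transcript Snrpb2-203 led replicate 1 with 77.0% and the coding Snrpb2-201 led replicate 2 with 63.0%. By expected count the coding transcript led both of these last genes in both libraries. Snrpb2-201 had 1418 and 4565 reads against 1231 and 667 on Snrpb2-203, and Hnrnph1-201 had 5771 and 3670 against 982 and 2561 on Hnrnph1-212. The changes in Srsf4 and Srsf5 were also seen by expected count. In the remaining 5 genes both leaders were annotated as protein coding.

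Those 5 were all hnRNPs. Hnrnpa2b1 was led by Hnrnpa2b1-203 at 43.1% in replicate 1 and by Hnrnpa2b1-202 at 36.1% in replicate 2. For Hnrnpf the leaders were Hnrnpf-201 at 48.2% and Hnrnpf-210 at 44.4%, and for Hnrnpr they were Hnrnpr-204 at 41.1% and Hnrnpr-205 at 53.0%. In none of these 3 genes did any transcript exceed 53.0% of the TPM. Hnrnpd, also called AUF1 and known for binding AU-rich elements, was led by Hnrnpd-210 at 27.7% and by Hnrnpd-203 at 47.4%, and Hnrnph3 by Hnrnph3-203 at 70.7% and Hnrnph3-202 at 43.5%. Hnrnph3-203 had 1064 and 0 reads and Hnrnph3-202 had 0 and 1370, so the reads of this gene were assigned to different models in the 2 libraries. By expected count, Hnrnpa2b1-203, Hnrnpr-204 and Hnrnpd-203 led their genes in both libraries, while the leaders of Hnrnpf and Hnrnph3 still differed.

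Hnrnpk kept its coding leader Hnrnpk-201, at 45.7% and 39.9% of its TPM, with the retained-intron transcript Hnrnpk-217 at 22.1% and 24.2%. Srsf7 has 1 transcript in the tables and so could not be assessed. Strand limits some values: 9 of the 51 genes overlap a gene on the other strand that reached 1 TPM in a library, and 2 overlap one on the same strand. Srsf2 overlaps Mettl23 (49.5 and 74.2 TPM), Hnrnpu overlaps Cox20 (118 and 50.2), Hnrnpk overlaps Rmi1 (41.8 and 21.0) and Hnrnph3 overlaps Rufy2 (0 and 22.7), all on the other strand, while Hnrnpm overlaps March2 (24.95 and 136) and Snrpn overlaps Snurf (6.59 and 13.9) on the same strand. The sources used here do not state whether strand was used in counting.

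Detection was less complete over 11 lists of 167 genes for other splicing factors and related proteins. Of these, 124 reached a TPM of 1 in both libraries. The shares to set beside this were 27.9% of all autosomal protein-coding genes and 63.8% of those averaging 1 TPM or more. The lists ranged from all 13 genes of U2 recruitment to 7 of the 23 tissue-restricted regulators. Of the 120 averaging 10 TPM or more, 21 were at least 2-fold higher in replicate 2 and 23 in replicate 1, where the shares of all genes were 25.1% and 26.2%. LSm proteins, which ring U6 or degrade messages, had the highest median of the 11 lists, a log2 level of 7.01 averaged over the libraries, and Lsm2 (307 and 528 TPM) and Lsm3 (367 and 338) were their highest members. By the same measure the snRNP proteins had 7.72, the SR proteins 7.54, the hnRNPs 6.83 and SF3 6.69.

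Of the other lists, 4 cover factors that work directly with these families. In the U4/U6.U5 tri-snRNP, 15 of 16 genes were detected, led by Snu13 (565 and 349 TPM) and Eftud2 (174 and 281). All 13 genes of U2 recruitment were detected, with the helicase Ddx39b at 353 and 375 TPM and the SF3b subunit Phf5a at 327 and 89.6. U1 partners reached 8 of 10, with Luc7l at 71.6 and 61.6 TPM. A list of the SMN complex, which loads Sm rings onto RNA, and other Sm assembly factors had 10 of 15 detected. Gemin7 stood at 210.2 and 324 TPM and Clns1a, the Sm chaperone, at 151 and 141.

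Further lists cover later steps and regulators. For the Prp19 complex and catalytic step factors 17 of 20 were detected in both, led by Bcas2 (199 and 312 TPM) and Bud31 (132 and 265). In a list of the exon junction complex, which marks spliced joins, and linked NMD factors, 8 of 9 genes were detected. Its highest members were Eif4a3 (347 and 589 TPM) and Magoh (194 and 126). The SR-related factors and kinases reached 16 of 20, with Rnps1 at 345 and 141 TPM, Tra2b at 329.8 and 124 and Scaf4 at 0 and 0.02. The hnRNP relatives under other names reached 13 of 20, led by Rbm3 (298 and 295 TPM) and Tardbp (200.4 and 188), with Cirbp at 0 and 0.06 and Pcbp3 at 0 in both. Of the minor spliceosome, which removes a rare intron class, 5 of 8 were detected, led by Zcrb1 (70.5 and 152 TPM) and Snrnp25 (107 and 128), with Pdcd7 at 0 and 0.01 and Zrsr1 at 0 in both.

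Of the tissue-restricted regulators, 7 of 23 were detected in both libraries, beside the 27.9% of all autosomal protein-coding genes, and 16 were below a TPM of 1 in both, among them Celf3 (0 and 0.01 TPM) and Celf4 (0 in both). The highest were Mbnl1, a regulator known from blood and muscle, at 255 and 142 TPM, and Celf1 at 46.4 and 36.0.

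**Figure D5:**
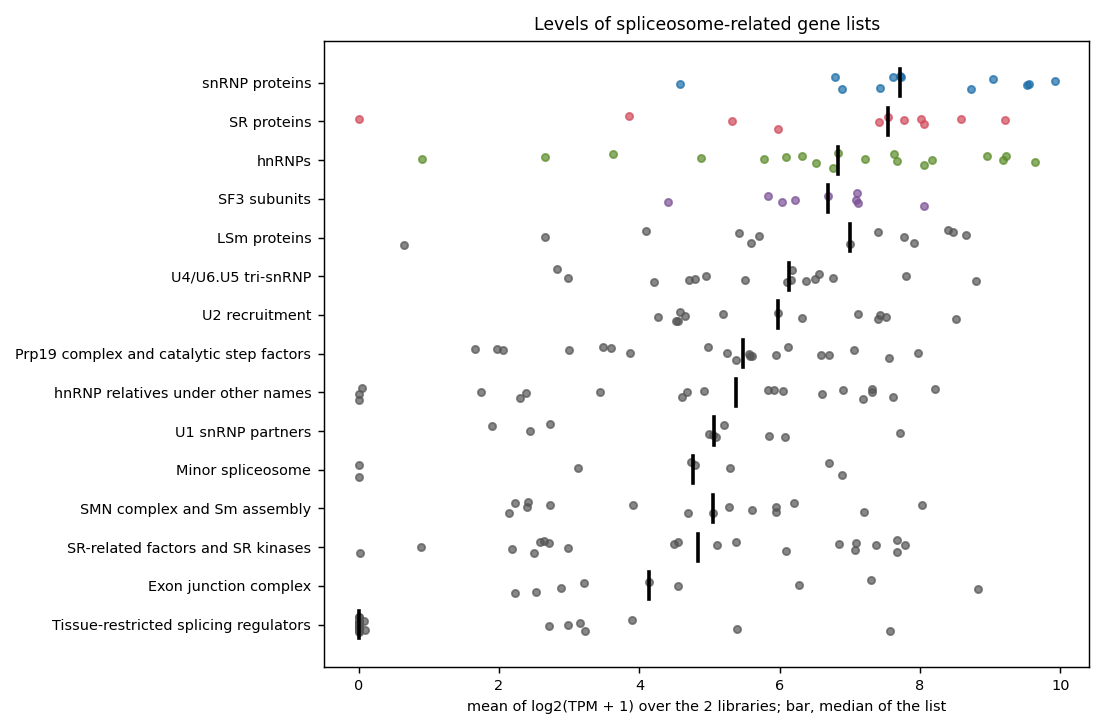
Mean log2(TPM + 1) over the 2 libraries of every gene (points) in the 4 families and the 11 lists, with the median of each as a black bar. The medians run from 7.72 for the snRNP proteins to 0 for the tissue-restricted regulators, whose points gather at 0.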

How the data were processed

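Each library came with a gene table and a transcript table. Per the file headers, the deposited values are expected counts (estimated reads, not always whole), TPM, FPKM, posterior mean TPM and the percent of its gene that each transcript makes up. The genome build is mm10 with GENCODE release M4, per the text deposited with the files. Which aligner and quantifier were run is not given in the sources used here.

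Rows were matched by identifier, without version, to GENCODE release M21, which gave 42462 of 43346 Ensembl rows a symbol and left 884 without one. Transcript types, coordinates and printed sequences come from M21. Of the 269 transcripts of the 51 genes, 1 was not in M21. Levels are the authors' deposited TPM per library or mean ± SD (n = 2). Pseudogene copies were found with BLAST 2.17.0. Tables were handled in Python 3.11.15 with pandas 2.3.3, and the ratio calculation was tested on simulated data. The deposited percent per transcript served for leading transcripts, and FPKM, posterior mean TPM and expected counts for alternatives. With 1 group of 2 libraries no p-value was computed. The genes and lists were chosen with earlier results of these data known. Named genes are the 4 highest and 3 lowest of each family, those under a TPM of 1 in a library, the 5 largest ratios each way, all Sm, U1, U2 and SF3 genes, genes whose leading transcript differed or was not protein coding, and for each list the 2 highest and up to 2 genes under a TPM of 1 in both libraries. Other genes were named after their values were seen, and 1 gene that the rule names is not reported here.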

Additional observations from a re-analysis of the deposited data

How the results depend on the processing

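In all, 147 alternative values were computed, of which 126 were classed as unchanged and none reversed. For values with an SD, unchanged meant within 1 SD of the reported value. Leaving out 1 of 2 libraries always meets that rule, so those values are no check. For log2 ratios of single genes, unchanged meant the same direction and the same side of 2-fold. Removing the filter on low values cannot alter those ratios. Shares of the SR proteins, hnRNPs, snRNP proteins and SF3 were 0.280%, 0.529%, 0.569% and 0.127% of autosomal protein-coding TPM, and 0.359%, 0.725%, 0.283% and 0.216% of expected counts. Median log2 levels were 6.82 (posterior mean TPM) and 6.68 (FPKM) for the hnRNPs and 6.48 (FPKM) for SF3, beside 6.83 and 6.64. In expected counts the part outside protein-coding transcripts was 24.4% for SR proteins, 5.79% for hnRNPs and 2.89% for SF3, and 1 gene in place of 4 had a non-coding leader in both libraries. Spike-in centring gave 10 genes higher in replicate 1, and no filter on low values gave 2 higher in replicate 2. Adding pseudogene copies, an alternative chosen after seeing the data, gave an Sm ratio of 14.3. Srsf5 passed 2-fold with spike-in centring (-1.37), and Hnrnpul1 (-0.87) and Srsf4 (-0.62) fell within it in counts.

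Leaving out each library in turn gave an Sm ratio of 8.47 to 9.84, 49 to 50 genes detected, and TPM shares of 0.198% to 0.244% (SR), 0.395% to 0.440% (hnRNP), 0.439% to 0.459% (snRNP) and 0.0902% to 0.111% (SF3). Median log2 levels were 7.34 to 7.61, 6.82 to 6.85, 7.67 to 8.09 and 6.60 to 6.67 in that order, and parts outside protein-coding transcripts 39.1% to 44.3%, 13.5% to 15.8%, 3.35% to 5.24% and 4.78% to 11.8%. No paired analysis was possible because there was 1 group. With 2 libraries of 1 cell-equivalent each, a gene at 0 was not detectable at this depth and is not shown to be absent.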

Other observations

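Of 1383 rows for small nuclear RNAs, the RNA partners of snRNP proteins, 28 had reads in a library. Over all of them there were 252 reads in replicate 1 and 414 in replicate 2, and the summed TPM was 171 and 216. Rnu2-10, a U2 gene, had 44.7 and 81.2 reads, and Rnu11, Rnu12 and Rnu1b1 were at 0 in both.

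The rule on autosomes left out Hnrnph2, an X-linked relative of Hnrnph1, which stood at 129 TPM in replicate 1 and 110 in replicate 2.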
